A study of Homo sapiens with 4 samples.

Results

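Kinesins are the motor proteins that use ATP to walk along microtubules. The kinesin genes were taken as every gene of the count table whose symbol is KIF followed by a number, with or without a letter, or KLC1 to KLC4 for the light chains of kinesin-1. These were 43 of 27011 genes. Of the 43, 14 are known as mitotic kinesins, 17 as transport kinesins or their light chains, and 12 have other or less certain roles, among them cilium function and signalling. The mitotic kinesins were compared with the transport kinesins between 2 RNA-Seq libraries of wild-type (WT) and 2 of Helz-null HEK293T cells.

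HEK293T is a human embryonic kidney cell line that carries the SV40 large T antigen, and HELZ is an RNA helicase that binds the CCR4–NOT deadenylase. Both groups were untreated cells harvested 24 h after plating. The edited line was made with Cas9 and a guide RNA against an exon of HELZ, which left a short deletion that shifts the reading frame. Only this single edited line was sequenced, so the genotype and the history of the line cannot be told apart, and the labels do not say whether the replicates were separate cultures from thawing onwards.

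Conventional kinesin, or kinesin-1, is a tetramer of KIF5 heavy chains and KLC light chains that carries vesicles, mitochondria and RNA granules toward microtubule plus ends. Kinesin-2 (KIF3 motors) and kinesin-3 (KIF1, KIF13 and KIF16 motors) carry other cargoes, in the cilium and in the cytoplasm. Mitotic kinesins build the spindle, move or depolymerise microtubules at chromosomes and bundle the midzone before cytokinesis, and many of their genes are transcribed in G2 and M phase through a cell cycle homology region and CCAAT boxes in the promoter.

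The libraries held between 41745401 and 70464140 counts, so that 3 counts, used as the floor, corresponded to 0.0426 to 0.0719 CPM (counts scaled to a library total of 1000000). HELZ mRNA had 99.8 and 103.9 CPM in WT and 36.98 and 37.9 CPM in Helz-null cells, a log2 fold change (log2FC) of -1.44 with a standard error (SE) of 0.042. A gene was called up- or down-regulated at a false discovery rate (FDR) under 0.005 with edgeR's quasi-likelihood test and Benjamini-Hochberg adjustment over 10978 genes. Of 8 HEK293T marker genes, 6 were tested, and their summed level was 635 FPKM (counts per kilobase of gene, scaled to the library total as CPM are) in both WT and 642 to 651 FPKM in Helz-null libraries, with 1 gene up and 4 down, where 29.4% of all tested genes were called. The one up was NEFM (log2FC 0.89), which carried the higher sum, and VIM (log2FC -0.14), KRT18 (-0.16), EYA1 (-0.55) and KRT8 (-0.98) fell, while PAX2 and LHX1 stayed under 2 FPKM in all 4 libraries. In these bulk libraries fewer cells of one kind and less RNA per cell cannot be told apart, and p-values measure only the spread between the sequenced samples.

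The promoters of 7 kinesin genes are shown because the mitotic and transport genes differ in them by known regulatory motifs. They come from the promoter table of RefSeq (build GRCh38.p14), which held windows for 35 of the 43 kinesin genes, and each line gives the 120 bases before the transcript start in the direction of the gene, all on the plus strand. Capitals mark matches to TTTGAA, the core of the cell cycle homology region, which reads TTCAAA where it lies on the opposite strand, and to CCAAT, the box bound by NF-Y, which reads ATTGG on the opposite strand. The first 4 are the called mitotic genes KIF23 (chr15:69414229-69414348), KIF15 (chr3:44761674-44761793), KIF20A (chr5:138178992-138179111) and KIF20B (chr10:89701470-89701589).

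KIF23: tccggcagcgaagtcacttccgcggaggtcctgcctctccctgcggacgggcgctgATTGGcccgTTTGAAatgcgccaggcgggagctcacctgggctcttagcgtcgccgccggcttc
KIF15: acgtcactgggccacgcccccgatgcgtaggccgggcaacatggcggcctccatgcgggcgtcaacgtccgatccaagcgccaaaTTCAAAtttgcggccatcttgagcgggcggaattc
KIF20A: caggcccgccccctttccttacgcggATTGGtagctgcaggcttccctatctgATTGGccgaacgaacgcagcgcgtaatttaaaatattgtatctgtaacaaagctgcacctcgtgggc
KIF20B: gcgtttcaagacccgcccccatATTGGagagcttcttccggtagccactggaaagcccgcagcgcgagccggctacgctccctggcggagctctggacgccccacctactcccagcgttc

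The next 3 are the uncalled mitotic genes KIF11 (chr10:92593010-92593129) and KIF4A (chrX:70289984-70290103) and the called transport gene KIF1C (chr17:4997830-4997949), which has neither motif.

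KIF11: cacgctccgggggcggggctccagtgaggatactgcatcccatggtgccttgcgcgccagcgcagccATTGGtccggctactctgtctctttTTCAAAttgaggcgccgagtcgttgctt
KIF4A: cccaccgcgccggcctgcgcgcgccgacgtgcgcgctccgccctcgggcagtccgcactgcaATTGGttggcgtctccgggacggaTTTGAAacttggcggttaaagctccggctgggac
KIF1C: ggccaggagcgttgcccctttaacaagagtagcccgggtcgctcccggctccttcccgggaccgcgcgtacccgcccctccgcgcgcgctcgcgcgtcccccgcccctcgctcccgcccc

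In windows of 250 bases before to 50 bases after the start, TTTGAA was present on either strand in 9 of 14 mitotic kinesin genes, in 1 of the 13 transport genes with a window and in 0 of 8 other genes. The transport gene was KIF5B. By window the shares were 60% of 15, 5.56% of 18 and 0 of 11, against 15.2% of the 35116 windows in the table. CCAAT was found in 10 mitotic, 4 transport and 3 other genes, and in 34.6% of all windows. Both motifs occurred together in 8 mitotic genes, in 1 transport gene and in 5.90% of all windows. Among mitotic spindle and midzone partners of the kinesins, 28 of 37 windows (75.7%) held TTTGAA. The 4 called mitotic genes differed in their motifs, of which KIF23 and KIF20B held both. KIF23 had CCAAT 64 and TTTGAA 55 bases before the start, KIF15 had TTTGAA 35 bases before it and no CCAAT, KIF20A had 2 CCAAT boxes 94 and 67 bases before it and no TTTGAA, and KIF20B had 2 CCAAT boxes 131 and 98 bases before it and 2 TTTGAA matches 25 and 31 bases after it, of which only the nearer CCAAT box is in the printed stretch. KIF11 and KIF4A, which were not called, carried both motifs within 60 bases of the start. A match describes the letters of a window and is not a measured binding site.

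Kinesin mRNA levels spanned a wide range in HEK293T cells. Per gene length, KIF5B, the ubiquitous heavy chain of kinesin-1, was the most abundant kinesin with 54.9 and 56.1 FPKM in WT and 55.02 and 56.8 FPKM in Helz-null cells. The chromokinesin KIF22, which pushes chromosome arms, followed with a WT mean of 43.8 FPKM. The spindle motor KIF11 (35.9 FPKM) and the vesicle and mRNA carrier KIF1C (29.2 FPKM) came next, and these 4 did not overlap with each other in any library of either group. KLC1, KIF23 and KLC2 stood side by side in WT cells, between 26.3 and 28.4 FPKM in all their WT values. Among tested kinesins the lowest was KIF5A, the neuronal heavy chain, at 2.25 FPKM in WT cells.

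Of the 43 kinesin genes, 32 were in the authors' tested gene list, selected for an FPKM above 2, comprising 12 mitotic, 16 transport and 4 other genes. Each of the 32 had at least 366 counts in every library. The 11 untested genes were KIF2B and KIF4B of the mitotic group, KIF13B of the transport group, and KIF6, KIF9, KIF12, KIF19, KIF21B, KIF25, KIF26B and KIF27. No reads were counted for KIF2B. KIF4B, a retrocopy of KIF4A without introns, had 0 and 2 counts in WT and 0 and 2 in Helz-null cells, so KIF4A carried nearly all reads of the pair, although reads of such copies can be assigned to either. KIF19 was also at or near the floor, with 4 and 2 counts in WT and 2 and 0 in Helz-null cells. With edgeR's filterByExpr in place of the authors' list, 8 of the 11 entered the fit and 0 were called at an FDR under 0.005, against 21.4% of all genes in that fit. Of the 8, 3 had an unadjusted p under 0.05, and no other tool was run on them. The smallest adjusted p values by edgeR were 0.0171 for KIF21B, a brake on microtubule growth (log2FC 0.24), and 0.039 for KIF9, a motor of motile cilia (log2FC -0.33).

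**Figure D1:**
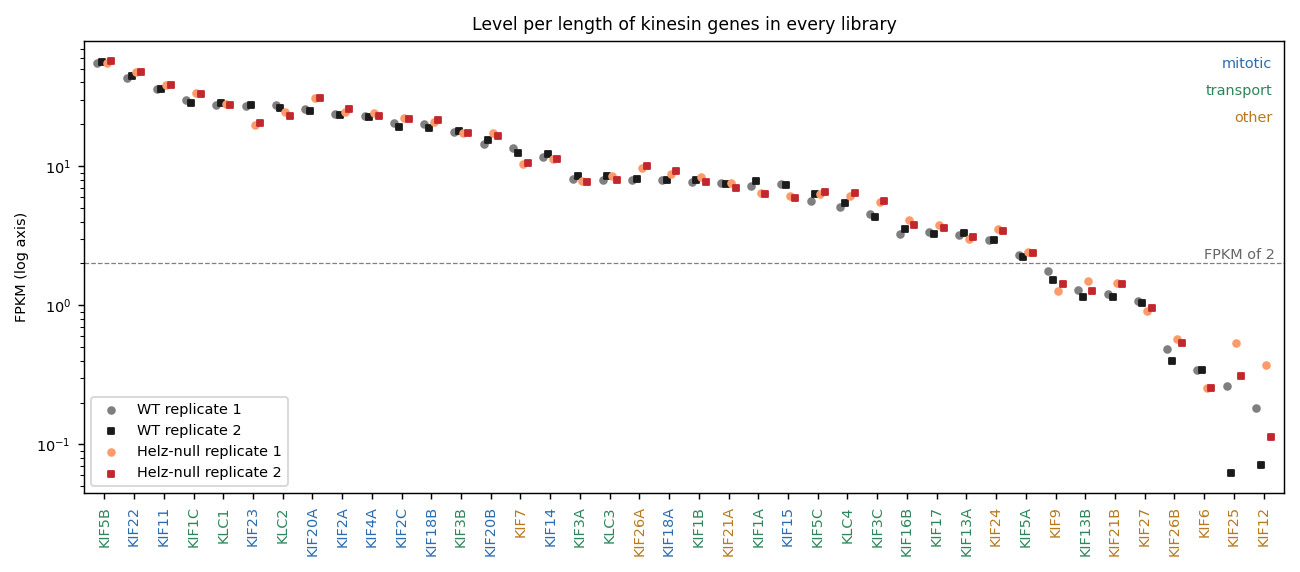
Level of each kinesin gene in FPKM on a log axis, ordered by the WT mean, with 1 point per library (circles replicate 1, squares replicate 2; grey and black WT, orange and red Helz-null); KIF2B, KIF4B and KIF19, with 0 counts in at least 1 library, are not drawn. The dashed line marks 2 FPKM, and KIF5B, KIF22, KIF11 and KIF1C head the order.

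The RNA of 5 kinesin genes rose in Helz-null cells and that of 5 fell, while 22 of the 32 were not called. Up-regulated were KIF20A, KIF20B, KIF1C, KIF3C and KIF26A, and down-regulated were KIF23, KIF15, KIF1A, KLC2 and KIF7. The called share of 31.25% was close to the 29.4% of all tested genes, of which 13.9% were up- and 15.5% down-regulated, so as a family the kinesins were called about as often as other genes. The 2 WT and the 2 Helz-null values did not overlap for 27 of the 32 genes (84.4%), against 70.6% of all tested genes. Groups overlapped for KIF1B, KIF4A, KIF5B, KIF5C and KLC3. Changes were small: the median absolute log2FC of the 32 genes was 0.12, against 0.11 over all tested genes, and KIF23 had the largest of the 32. Between single libraries of a group, the median for the 32 genes was 0.047 in WT and 0.046 in Helz-null cells.

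Mitotic and transport kinesins were both called about as often as other genes. Of 12 mitotic genes 2 were up, 2 were down and 8 were not called, and of 16 transport genes 2 were up, 2 were down and 12 were not called, which is 33.3% and 25% called, against 29.4% of all tested genes. The median log2FC was 0.072 for mitotic and -0.015 for transport genes, against -0.0009 for all tested genes, and 9 of 12 mitotic and 7 of 16 transport genes lay above 0, as did 5455 of all 10978 genes. No test was made of the difference between these counts. Both called mitotic decreases, of KIF23 and KIF15, were in stretches of chromosome whose other genes were lower too (neighbourhood medians -0.42 and -0.32). The sign of the transport median was not stable, since it became 0.008 without WT replicate 2, 0.030 without Helz-null replicate 2 and 0.021 without the light chains. The mitotic median stayed between 0.053 and 0.095 when any one library was left out. Scaling by library size alone moved the median of all genes to 0.032, and the medians then were 0.11 for mitotic and 0.018 for transport genes.

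Summed per gene length, mitotic kinesin mRNA was 261.3 and 259.8 FPKM in WT and 272 and 272 FPKM in Helz-null cells, and transport kinesin mRNA was 217 and 219 FPKM in WT and 222 and 220.3 FPKM in Helz-null cells. The ratio of the mitotic to the transport sum was 1.201 and 1.184 in WT and 1.23 and 1.24 in Helz-null cells, a change of 1.03-fold in which the groups did not overlap. An exact two-sided permutation test over the 4 libraries gave p = 0.33, which is the smallest value that 2 against 2 libraries allow. Neuron markers were measured because transport kinesins are abundant in neurons. They summed to 18.1 and 18.3 FPKM in WT and 20.7 to 21.4 FPKM in Helz-null libraries. Of the 6, 3 were tested, and SYP alone was called (up), where 29.4% of all tested genes were called. SYT1 and TUBB3 were not called (log2FC 0.15 and 0.051, edgeR adjusted p = 0.155 and 0.587). SNAP25 was at or near 0 in all 4 libraries, and MAP2, also low, went the other way, with 0.091 and 0.123 FPKM in WT and 0.024 and 0.017 FPKM in Helz-null libraries. Whether they bear on the transport genes was not tested.

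**Figure D2:**
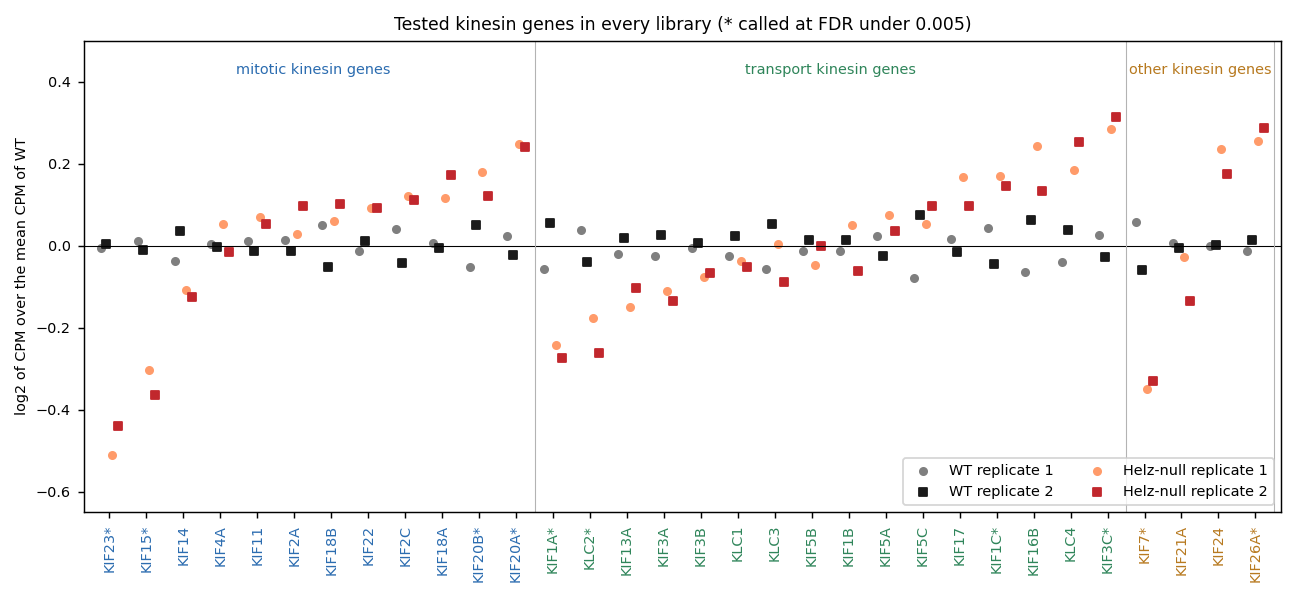
Log2 of the CPM of each tested kinesin gene over its mean CPM in WT cells (vertical axis), with 1 point per library, grouped by role and ordered by the Helz-null change; asterisks mark called genes. Helz-null points lie furthest below 0 for KIF23 and furthest above it for KIF3C, and the mitotic genes include both KIF20A (up) and KIF23 (down).

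KIF23, the motor of the centralspindlin complex that bundles the midzone for cytokinesis, was the most reduced kinesin. Its gene is on the plus strand of chromosome 15, bases 69706585 to 69740766 of GRCh37 (hg19), the build used for every gene position given here. KIF23 mRNA had 105 and 106 CPM in WT and 73.9 and 77.5 CPM in Helz-null cells. The groups were far apart, and the level fell by 27.9% (log2FC -0.47, SE 0.037, edgeR adjusted p = 1.05e-13). It was also the only kinesin called when a change of at least 1.2-fold was required. RACGAP1, its partner in centralspindlin, was not called (log2FC 0.041, adjusted p = 0.359 by edgeR), and the ratio of KIF23 to RACGAP1 went from 0.871 and 0.918 in WT to 0.620 and 0.630 in Helz-null cells by FPKM. This and the other ratios of gene pairs were chosen after the values were seen.

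KIF15, which holds spindle poles apart together with TPX2 and can stand in for KIF11, was the other mitotic gene that fell (chromosome 3, 44803213 to 44914868, plus strand). KIF15 mRNA had 37.3 and 36.8 CPM in WT and 30.0 and 28.8 CPM in Helz-null cells. Again the groups did not overlap, and the level fell by 20.8% (log2FC -0.34, SE 0.055, edgeR adjusted p = 3.27e-06). KIF11 itself, the main motor of spindle bipolarity, had 190.3 and 187 CPM in WT and 198 and 196 CPM in Helz-null cells (log2FC 0.060, SE 0.031, edgeR adjusted p = 0.111). The FPKM ratio of KIF15 to KIF11 was thus 0.206 in both WT libraries and 0.159 and 0.154 in Helz-null libraries. TPX2 was not called (log2FC 0.091, edgeR adjusted p = 0.0181).

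KIF20A, which brings the chromosomal passenger complex to the midzone, rose in mRNA while KIF23, also a midzone motor, fell. It (chromosome 5, 137514408 to 137523412, plus strand) had 92.96 and 89.98 CPM in WT and 108.7 and 108.1 CPM in Helz-null cells. The values of each group were tight and did not overlap (18.3% higher, log2FC 0.24, SE 0.036, edgeR adjusted p = 4.54e-07). In the GENCODE annotation, exons of KIF20A share 132 bases with BRD8 and 74 bases with CDC23 on the opposite strand. That annotation may differ from the one behind the counts, and whether the counting used strand is not given in the sources used here. In FPKM, KIF20A stood at 0.951 and 0.914 of KIF23 in WT and at 1.58 and 1.49 in Helz-null cells. KIF20A mRNA was thus the less abundant of the pair in both WT libraries and the more abundant in both Helz-null libraries.

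KIF20B, a relative of KIF20A that acts late in cytokinesis (chromosome 10, 91461347 to 91534696, plus strand), had 96.3 and 103 CPM in WT and 113 and 108 CPM in Helz-null cells. The gap between the groups was about as wide as the spread within them. Its rise of 11.1% (log2FC 0.15, SE 0.037, edgeR adjusted p = 0.000966) was the weakest of the called kinesins. With 1 library left out, its log2FC ranged from 0.098 (without WT replicate 1) to 0.20 (without WT replicate 2), and was 0.12 without Helz-null replicate 1. With DESeq2 the log2FC stayed at 0.15 but the call was lost (DESeq2 adjusted p = 0.00743). KIF22, the most abundant mitotic kinesin per gene length, had 108.8 and 110.7 CPM in WT and 117 CPM in both Helz-null libraries. These groups did not overlap, yet the change of 6.61% missed the threshold (log2FC 0.092, SE 0.034, edgeR adjusted p = 0.0258). The 6 other mitotic genes that were tested and not called ranged in log2FC from -0.11 for KIF14, a cytokinesis motor, to 0.15 for KIF18A, which dampens chromosome movements at the metaphase plate, with KIF4A, the PRC1 partner, at 0.016.

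The transport genes that were called belonged to 3 classes. Within kinesin-3, KIF1A fell and KIF1C rose. KIF1A, the carrier of synaptic vesicle precursors in axons (chromosome 2, 241653178 to 241763710, minus strand), had 68.6 and 74.0 CPM in WT and 60.3 and 59.0 CPM in Helz-null cells, which did not overlap. Its level fell by 16.2% (log2FC -0.26, SE 0.043, edgeR adjusted p = 6.01e-06). KIF1C (chromosome 17, 4901245 to 4931696, plus strand) had 246 and 232 CPM in WT and 269 and 264 CPM in Helz-null cells, where the WT values were the more scattered and the groups still apart (11.4% higher, log2FC 0.16, SE 0.031, edgeR adjusted p = 6.5e-05). The FPKM ratio of KIF1C to KIF1A was 4.18 and 3.64 in WT and 5.19 and 5.22 in Helz-null cells. KIF1B, the third gene of this subfamily, overlapped between the groups (log2FC -0.0073, edgeR adjusted p = 0.889). The summed kinesin-3 level was 52.7 and 52.0 FPKM in WT and 57.0 and 55.2 FPKM in Helz-null cells, of which KIF1C held 55.7% and 59.4% on average.

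Within kinesin-2, KIF3C rose while the other kinesin-2 genes were not called. KIF3C (chromosome 2, 26149467 to 26205618, minus strand) had 25.3 and 24.4 CPM in WT and 30.3 and 30.9 CPM in Helz-null cells. It was the kinesin with the largest increase, 22.95%, with no overlap between the groups (log2FC 0.30, SE 0.060, edgeR adjusted p = 7.68e-05). KIF3A (log2FC -0.12, adjusted p = 0.0281) and KIF3B (log2FC -0.070, adjusted p = 0.0963) were not called by edgeR, nor was KIFAP3, the shared non-motor subunit (log2FC 0.12, adjusted p = 0.0801). The summed level of the 3 motors was nearly the same in every library, between 30.4 and 30.8 FPKM. KIF3C made up 14.8% and 14.1% of it in WT and 18.0% and 18.3% in Helz-null cells.

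Within kinesin-1 none of the 3 heavy chains was called and 1 of the 4 light chains fell. KIF5B had 335 and 341 CPM in WT and 327 and 338 CPM in Helz-null cells, so the groups overlapped (log2FC -0.022, SE 0.029, edgeR adjusted p = 0.565). It made up 87.1% of heavy-chain FPKM in WT and 86.3% in Helz-null cells on average. KLC2 (chromosome 11, 66024765 to 66035331, plus strand), a light chain that links the motor to cargo adaptors, had 93.7 and 88.9 CPM in WT and 80.8 and 76.2 CPM in Helz-null cells. There was no overlap between the groups, and the level fell by 14.3% (log2FC -0.22, SE 0.039, edgeR adjusted p = 1.08e-05). KLC1, the other abundant light chain, had 89.8 and 92.8 CPM in WT and 88.9 and 88.0 CPM in Helz-null cells (log2FC -0.044, SE 0.037, edgeR adjusted p = 0.345). In the GENCODE annotation KLC1 exons cover 19251 bases, of which 5756 (29.9%) are shared with XRCC3 on the opposite strand. KLC1 was counted over only 3158 bases, so the shared part of the counted bases is not known. Such overlap limits the KLC1 values if strand was not used. KLC4 missed the threshold narrowly (log2FC 0.23, edgeR adjusted p = 0.00901), and its share of light-chain FPKM was 7.48% and 7.85% in WT and 9.12% and 9.85% in Helz-null cells.

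**Figure D3:**
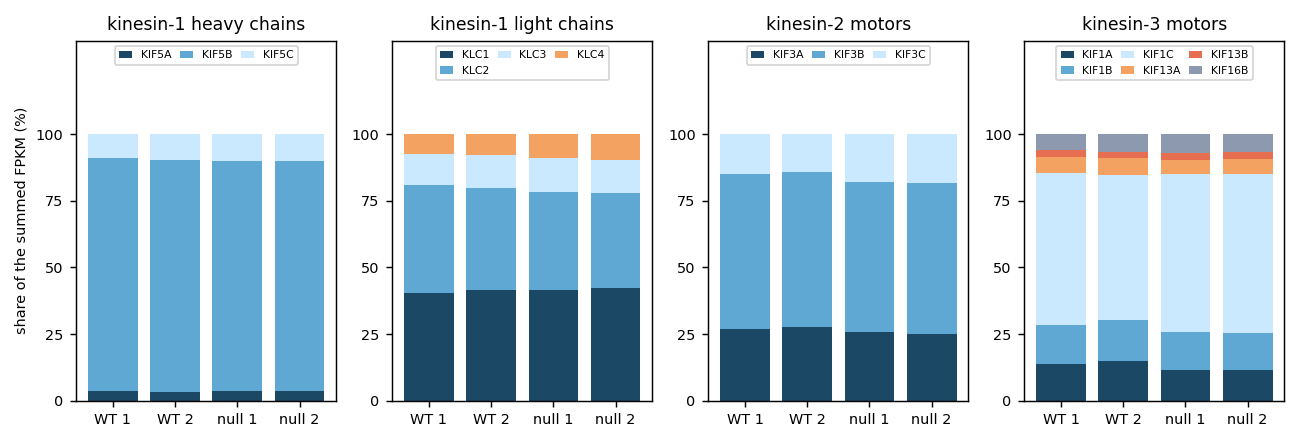
Share of each gene in the summed FPKM (percent, vertical axis) of kinesin-1 heavy chains, kinesin-1 light chains, kinesin-2 motors and kinesin-3 motors, with 1 bar per library (2 WT, 2 Helz-null). The shares of KIF3C, KLC4 and KIF1C are larger and those of KLC2 and KIF1A smaller in both Helz-null libraries than in both WT libraries, while KIF5B holds over 86% of heavy chains in every library.

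Among the kinesins of other roles KIF7 fell and KIF26A rose. KIF7, a protein of the cilium tip that restrains hedgehog signalling through GLI factors (chromosome 15, 90152020 to 90206317, minus strand), had 63.8 and 58.9 CPM in WT and 48.1 and 48.8 CPM in Helz-null cells. The groups did not overlap, and the level fell by 21.2% (log2FC -0.34, SE 0.046, edgeR adjusted p = 8.73e-08). In the GENCODE annotation KIF7 shares 589 of 5446 exonic bases (10.8%) with TICRR on the opposite strand, and was counted over 4558 bases. KIF26A, an atypical kinesin that binds microtubules without ATPase activity (chromosome 14, 104602791 to 104647231, plus strand), had 55.3 and 56.4 CPM in WT and 66.7 and 68.1 CPM in Helz-null cells. Both groups were tight and apart (20.9% higher, log2FC 0.27, SE 0.043, edgeR adjusted p = 1.43e-06). KIF24, which restrains cilium growth at the mother centriole, had 19.0 CPM in both WT and 22.4 and 21.5 CPM in Helz-null libraries, and was not called (log2FC 0.20, edgeR adjusted p = 0.0144). KIF21A, a regulator of microtubule growth at the cell cortex, had 51.8 and 51.3 CPM in WT and 50.6 and 46.9 CPM in Helz-null cells (log2FC -0.086, edgeR adjusted p = 0.144).

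The 3 kinesins with the largest decreases stood in stretches of chromosome in which nearly every gene was lower. As a description, each kinesin was set beside the 20 nearest tested genes that are no kinesins, 10 on each side. Around KIF23, on chromosome 15 from 67.5 to 72.6 Mb, 20 of 20 genes had a log2FC below 0, 19 of them called down, with a median of -0.42. Around KIF15, on chromosome 3 from 43.1 to 47.0 Mb, all 20 were below 0, 16 called down, with a median of -0.32. Around KIF7, on chromosome 15 from 89.0 to 90.8 Mb, 19 of 20 were below 0, 17 called down, with a median of -0.34. Relative to these neighbours the log2FC was -0.048 for KIF23, -0.014 for KIF15 and -0.0057 for KIF7, against SEs of 0.037, 0.055 and 0.046 for their own log2FC. PRC1, which KIF4A and KIF23 meet at the midzone, is likewise on chromosome 15 (91509270 to 91538859, minus strand), with a log2FC of -0.31 (edgeR adjusted p = 4.1e-11) and a neighbourhood median of -0.31. The untested KIF9, on chromosome 3, had 20 of 20 neighbours below 0, with a median of -0.26. Its window, from 45.0 to 48.3 Mb, overlaps that of KIF15.

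The other called kinesins departed from their neighbourhoods. Relative to the 20 nearest genes the log2FC was -0.32 for KIF1A, -0.26 for KLC2, 0.20 for KIF20B, 0.23 for KIF1C, 0.26 for KIF20A and 0.29 for KIF3C. KIF26A was the sharpest case, since it rose where 16 of its 20 neighbours were below 0 and 11 were called down (median -0.21), so that its difference from them was 0.49. In all, 4 of the 32 tested kinesins (KIF23, KIF15, KIF7 and KIF26A) had a neighbourhood median at or under -0.15 and 0 had one at or above 0.15. Between the WT libraries no kinesin neighbourhood had a median log2 ratio (of CPM + 2) beyond 0.063 in size. Across the 32 genes, which are not independent and share the same 4 libraries, the Pearson correlation of log2FC with the neighbourhood median was 0.48, and with the GC content of the transcript it was 0.092 over 31 genes. The part that position on the chromosome has in these values was not tested.

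Most relatives and partners of the kinesins moved by similarly small amounts. Of 6 tested relatives that the naming rule leaves out, 1 was up and 0 were down, with a median log2FC of 0.045. The called share was 16.7%, against 29.4% of all tested genes. The one called was KIFC1, the minus-end motor that focuses spindle poles (log2FC 0.15, edgeR adjusted p = 0.00254), whereas CENPE, the motor that brings chromosomes to the metaphase plate, was not called (log2FC -0.11, adjusted p = 0.0145). Among 24 tested cargo adaptors and activators of transport kinesins 8 were up and 3 down (45.8% called, against 29.4% of all tested genes), with a median of 0.058. HAP1, an adaptor of kinesin-1 and dynein, and MAPK8IP2, a scaffold that binds light chains, had the largest increases (log2FC 0.67 and 0.36). HAP1 had 1.64 and 1.48 FPKM in WT and 2.57 and 2.56 FPKM in Helz-null libraries. By these values it passed the limit of 2 FPKM only in the group where it was higher. TRAK1, which couples mitochondria to kinesin-1, was among those that fell (log2FC -0.19). Of 42 tested spindle and midzone partners of mitotic kinesins 10 were up and 3 down, with a median of 0.051, and the called share of 30.95% was close to the 29.4% of all tested genes. The kinase TTK (log2FC 0.23) and NUMA1 (0.20), a spindle pole protein, led the increases, and PRC1 and MAD2L1 (log2FC -0.17), a checkpoint protein, the decreases.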

How the data were processed

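RNA-Seq libraries were made from total RNA of WT and Helz-null HEK293T cells (2 libraries each) with a TruSeq RNA kit and sequenced as read pairs. Per the methods of the study, Bowtie2 served to filter out ribosomal RNA, TopHat2 to align the remaining pairs to hg19 and QuasR to count them per gene. These counts were deposited as they were, without normalization. Tool versions, annotation, strand use and whether mates were counted singly are not given in the sources used here, so antisense and overlapping genes are uncertain. The width of each gene, in bases, is part of the deposited table. A second deposited table holds the authors' own edgeR comparison of 10978 genes (log2 values, p-values, FDR); its gene list was used and its values were not.

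Counts were fitted over these genes with edgeR 4.0.16 in R 4.3.3 (TMM, estimateDisp, glmQLFit, glmQLFTest), on genotype alone; the threshold of calls was an FDR under 0.005. The biological coefficient of variation was 2.60%. CPM values are TMM-scaled; FPKM was computed from counts, width and library total. The floor of 3 counts covers counting error only. Neighbours were placed with the GENCODE annotation on GRCh37, to which 10379 genes were matched by symbol and 514 by an older symbol, with 85 unmatched. The fit was tested on simulated data. Replicates of a group differed by more than sampling noise (chi-square per degree of freedom 3.44 over 16898 genes for WT and 2.67 over 16912 genes for Helz-null), so none was counted as a repeat. Alternatives were DESeq2 1.42.0, RLE and library-size scaling, other filters, a replicate block, leaving out each library, thinning, halved counts and a minimum fold of 1.2. Values in every library are given for called kinesins and for the 2 uncalled ones of each role with the highest WT FPKM; from other lists up to 2 genes per direction with the largest change are named, except 1 that is not reported here. The kinesin genes and all lists were chosen with earlier results of these data known. Protein sequences were not used here.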

Additional observations from a re-analysis of the deposited data

How the results depend on the processing

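Calls of the kinesins rested on differences of under 0.5 on the log2 scale between 2 and 2 libraries. The up- and down-regulated counts of all kinesins, 5 and 5, became 9 up with library size only, and 0 up and 1 down (KIF23) when a fold change of at least 1.2 was tested, and lay between 4 and 6 in either direction when any one library was left out. The mitotic counts, 2 up and 2 down, became 1 up with DESeq2, 4 up with library size only and 0 up and 1 down with the fold of 1.2, with 1 to 2 up and 2 to 3 down when a library was left out. The transport counts, 2 up and 2 down, both became 0 with the fold of 1.2, and 3 were up with library size only and without WT replicate 2. The median log2FC became 0.106 for mitotic and 0.018 for transport genes with library size only, which also gave 2109 up and 1318 down over all genes in place of 1524 and 1701, and the transport median was 0.021 with light chains left out. Leaving out a library gave mitotic medians from 0.053 to 0.095 and transport medians from -0.030 to 0.030. KIF5B turned to 0.011 with library size only and ranged from -0.047 to 0.00025 when a library was left out, and KLC1 to 0.036 with the neighbourhood median subtracted, neither being called in any fit. KIF22 and KIF24 were called with library size only (adjusted p = 0.00243 and 0.00414 by edgeR). The causes of these changes were not tested, other than that the fold of 1.2 is a stricter test by construction. Library numbers did not pair the samples, since with 2 pairs the deviations of same-numbered libraries had a correlation of 0.0233 over 10767 genes; with the replicate block 5 kinesins were up and 5 down, 2 and 2 of them mitotic and 2 and 2 transport. The medians with the replicate block were 0.073 for mitotic and -0.014 for transport genes.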

Other observations

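Genes of the opposite motor and of the track moved in both directions as well. Of 29 tested genes of cytoplasmic dynein and dynactin, which carry cargo toward microtubule minus ends, 3 were up and 4 down. Their median log2FC was 0.0071 and their called share 24.1%, against 29.4% of all tested genes. DCTN3, a dynactin subunit, had 61.6 and 60.0 CPM in WT and 71.9 and 71.6 CPM in Helz-null cells (log2FC 0.24), and DYNC1I2, a dynein intermediate chain, had a log2FC of 0.15. HOOK1, an adaptor of dynein, and DYNC1LI1, a light intermediate chain, had the largest decreases among the called genes (log2FC -0.23 and -0.22).

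Of 20 tested microtubule-associated and plus-end proteins, 4 were up and 3 down (35% called, against 29.4% of all tested genes), with a median log2FC of 0.042. STMN3, a neuronal stathmin that binds tubulin dimers, had 38.4 and 40.7 CPM in WT and 61.7 and 61.5 CPM in Helz-null cells (log2FC 0.64), a larger change than that of any tested kinesin gene. MAPT, which encodes tau, had a log2FC of 0.33, and MAP9 and CLIP1, a spindle protein and a plus-end protein, had log2FC values of -0.34 and -0.25. MAPT passed 2 FPKM only in Helz-null libraries (2.43 and 2.42 FPKM, against 1.95 and 1.80 FPKM in WT).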
